A study of Arabidopsis thaliana with 24 samples.

Results

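Untreated plants of the Arabidopsis thaliana double mutant mkk1/mkk2 were compared with untreated plants of the wild type Col-0 on ATH1 arrays, which read the transcripts of a gene as the brightness of 1 or more probe sets. The arrays were chosen by their titles, 3 that name the double mutant without treatment and 3 that name Col-0 at time 0, so 6 of the 24 arrays of the series. By the source names, the single mutants that the series also holds carry the insertion SALK_027645 in MKK1 and the insertion Garlic_511-HO1 in MKK2; the design text calls the mutants knockouts, so mkk1/mkk2 lacks both genes and Col-0 neither, and the source name of mkk1/mkk2 names no insertion of its own. Whole plants had grown in soil under short days, 8 h light (21 °C) alternating with 16 h dark (16 °C), either in a growth chamber or in a greenhouse. The other 18 arrays hold the untreated single mutants and all 4 genotypes 24 h after BTH (benzothiadiazole, a synthetic analogue of the defence hormone salicylic acid), 3 arrays a group.

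The labels limit what the comparison can be read as. The Col-0 arrays are titled time 0 and the titles of the untreated mutants give no time, so harvest time and genotype cannot be told apart. The description field calls each of the samples untreated Col-0, and the treatment field gives a spray (BTH at 100 µM) for BTH samples of mkk2 and of the double mutant alone; the titles were followed. Nothing in the labels says that the 3 arrays of a group came from separate plants, so the p-values measure the spread between arrays, which may be technical.

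MKK1 and MKK2 are closely related MAP kinase kinases, enzymes that switch on a MAP kinase by phosphorylating it. They work between the kinase MEKK1 and the MAP kinase MPK4 in a cascade that is activated when receptors at the cell surface detect microbial molecules. Plants that lose this cascade are known as dwarfs with dying cells and raised salicylic acid in the absence of infection, and much of that state is known to depend on the immune receptor SUMM2. In the annotation used, no probe set for 1 gene carried the name MKK1, MKK2, MEKK1, MEKK2, MPK4, SUMM2, PR1, PR2, PR5, ICS1, EDS1 or PAD4. They were searched for by name alone, so a probe set annotated only with the locus would have been missed. None of them is analysed here, and no targeted gene checks the genotypes.

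Values are log2 RMA values, brightness on the log2 scale after background correction and scaling of the arrays to each other, and they ran between 2.27 and 14.14. A difference of 1 on this scale is 2-fold. Over the 22746 probe sets tested, pairs of untreated Col-0 arrays correlated at 0.979 to 0.992 (Pearson's r). Untreated mkk1/mkk2 arrays B and C correlated at 0.989, whereas array A stood apart, at 0.932 with B and 0.935 with C. Array A lay 1 unit or more from the mean of B and C at 4081 probe sets, 1345 above and 2736 below; the same number was 17 to 543 for single Col-0 arrays. The 3′ minus 5′ signal of the GAPDH control probes, a measure of RNA integrity, was 0.78, 0.36 and 0.07 on mkk1/mkk2 arrays A, B and C, against 0.61, 0.34 and 0.23 on the Col-0 arrays. The groups overlapped in that measure, and its part in the results was not tested.

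In untreated mkk1/mkk2, 7573 probe sets differed from untreated Col-0 at a Benjamini-Hochberg adjusted p under 0.05 (limma on all 24 arrays, 8 group means), 33.3% of those tested. Of these, 3654 were higher in mkk1/mkk2 (16.1%) and 3919 lower (17.2%), and the median log2 difference of all probe sets was -0.007. A change of at least 2-fold was found at 3884 of the called probe sets, 1892 higher and 1992 lower. The 3 mkk1/mkk2 arrays did not overlap the 3 Col-0 arrays at 8150 probe sets, 35.8% of those tested. The count of 7573 differed between fits: it was 4183 in a fit of the 6 arrays alone, 4862 with weights for the spread of each group, and 8208 without mkk1/mkk2 array A. The fit of all 24 arrays pools the spread over the 8 groups, and the spread was unequal. The median SD over probe sets was 0.309 in untreated mkk1/mkk2, against 0.151 in untreated Col-0 and 0.133 to 0.199 in the other groups. SEs and p-values below thus rest in part on arrays outside the comparison. In the fit of the 6 arrays alone, OSM34 and CHI, described next, had adjusted p = 6.4e-05 and 8.7e-05 (limma). Among the 13355 genes with a single-gene probe set, 13.7% were called higher and 16.4% lower, and these shares are the background for the gene groups that follow. Of these genes, 11798 are named by locus only. Groups were filled by gene name or synonym, so the measured members of a group are those found by name. Other members of a family on the array can be missing from its counts.

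The largest 2 rises among the called genes were those of CHI and OSM34, both defence proteins. All 3 measured members of the group of pathogenesis-related and antimicrobial proteins rose, with a median log2 difference of 6.56. OSM34, an osmotin-like protein of the thaumatin family, had log2 values of 10.26, 10.5 and 10.56 on mkk1/mkk2 arrays A, B and C, against 3.49, 4.18 and 3.96 on the Col-0 arrays. Each mkk1/mkk2 array lay far above each Col-0 array, and the difference of 6.56 ± 0.22 (SE) was 94.6-fold (limma adjusted p = 1.2e-13). CHI, a chitinase that cuts the chitin of fungal walls, had 11.11, 11.78 and 11.91 in mkk1/mkk2, against 5.23, 4.39 and 4.63 in Col-0. The groups were again well separated, at a difference of 6.85 ± 0.28, 115-fold (adjusted p = 1e-12, limma). ChiC, another chitinase, read 6.04, 5.52 and 6.63 on the mkk1/mkk2 arrays, against 3.24, 3.85 and 3.75 on the Col-0 arrays, a difference of 2.45 ± 0.3 (adjusted p = 2.2e-06, limma). Since whole plants were sampled, more transcript per cell and more cells of a type that holds it cannot be told apart for these or any later genes.

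Small cysteine-rich peptides, the defensins and thionins that damage microbial membranes, did not move as a block. Of 15 measured members, 6 rose, none fell and the median difference was 0.1; 3 rose in the fit of the 6 arrays alone and 3 with group weights. PDF1.4 had 10.7, 10.04 and 9.82 in mkk1/mkk2, against 4.97, 5.08 and 4.42 in Col-0. All mkk1/mkk2 arrays were higher, by 5.36 ± 0.29 or 41.2-fold (adjusted p = 4.4e-11, limma). LCR69, also named PDF2.2, had 11.72, 11.39 and 11.91 in mkk1/mkk2, against 9.04, 9.36 and 9.3 in Col-0, a difference of 2.44 ± 0.45 (adjusted p = 0.00022, limma). The jasmonate marker PDF1.2 gave 6.95, 6.26 and 7.39 in mkk1/mkk2, against 6.29, 5.94 and 5.06 in Col-0. Its groups overlapped, and the difference of 1.1 ± 0.39 (adjusted p = 0.036, limma) was no longer called when any of these arrays was left out: 0.75 (adjusted p = 0.19) without Col-0 array C, 1.19 (0.055) without Col-0 array B, 0.84 (0.15) without mkk1/mkk2 array C and 1.06 (0.071) without mkk1/mkk2 array A. Its near copy PDF1.2b was called at 1.38 ± 0.36 with groups that did not overlap, but with an adjusted p of 0.09 in the fit of the 6 arrays alone; probe sets of such close copies can share signal.

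Of 5 measured genes of salicylic acid synthesis and signalling, 3 rose, none fell, and the median difference was 1.56. GRX480, a glutaredoxin that salicylic acid induces and that binds TGA transcription factors, had 10.17, 10.04 and 10.42 in mkk1/mkk2, against 5.85, 5.69 and 5.74 in Col-0. The arrays of each genotype lay within a narrow band, with a gap of 4.45 ± 0.23 between the means, 21.9-fold (adjusted p = 2.5e-11, limma). UGT76B1, which attaches glucose to isoleucic acid and salicylic acid, had 6.54, 7.55 and 8.27 in mkk1/mkk2, against 3.61, 3.36 and 3.75 in Col-0, a difference of 3.88 ± 0.35 (adjusted p = 4.7e-08, limma). SAG101, a partner of EDS1 in signalling downstream of immune receptors, had 5.6, 6.77 and 6.81 in mkk1/mkk2, against 4.61, 4.67 and 5.22 in Col-0. mkk1/mkk2 array A was nearest to Col-0 for both of these genes, and no array of SAG101 crossed between the groups at a difference of 1.56 ± 0.29 (adjusted p = 0.00027, limma).

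**Figure D1:**
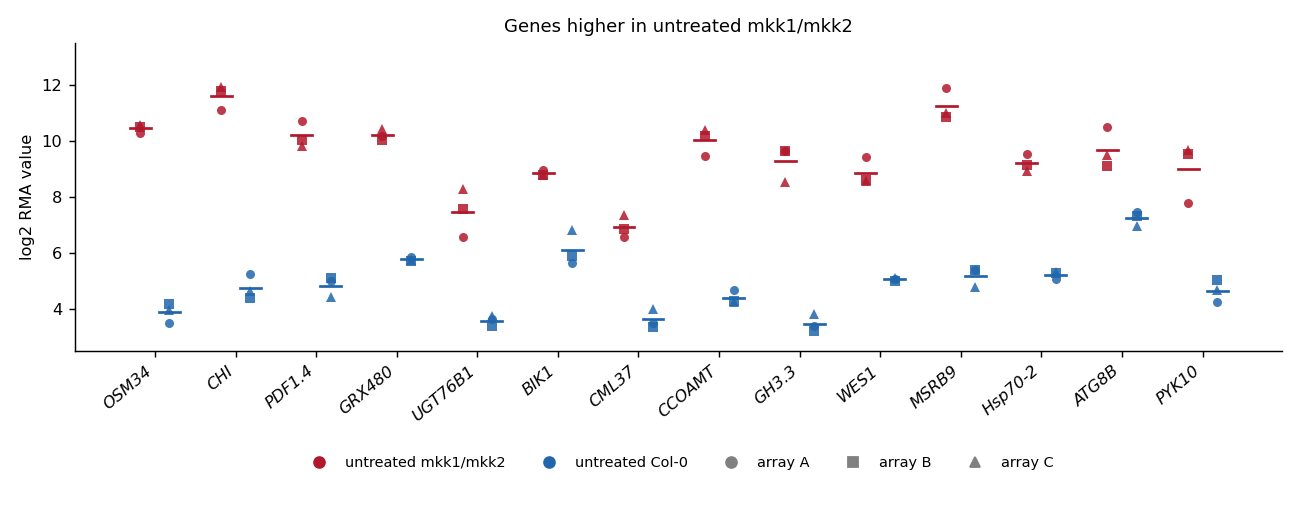
Log2 RMA value (vertical axis) of 14 genes named in the text on each untreated mkk1/mkk2 array (red) and each untreated Col-0 array (blue), with bars at the group means of 3 arrays and symbols for arrays A, B and C. For each of these genes the lowest mkk1/mkk2 array lies above the highest Col-0 array.

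Genes that act before and around these defence outputs rose in part. Among 19 immune receptors, receptor-like kinases and their partners, 8 rose and 1 fell (4 rose in the fit of the 6 arrays alone, and 2 fell without mkk1/mkk2 array A), at a median of 0.21. BIK1, the cytoplasmic kinase that carries the signal from pattern receptors such as FLS2, had 8.96, 8.76 and 8.76 in mkk1/mkk2, against 5.63, 5.87 and 6.8 in Col-0, a difference of 2.73 ± 0.28 (adjusted p = 2.5e-07, limma). SBT3.3, a subtilase linked to immune priming, had 7.14, 6.23 and 6.05 in mkk1/mkk2, against 3.63, 3.7 and 3.68 in Col-0, a difference of 2.8 ± 0.2 (adjusted p = 2.3e-09, limma). Neither gene had overlapping groups. CSA1, an intracellular receptor of the nucleotide-binding leucine-rich repeat class, rose by 1.6 ± 0.33 (adjusted p = 0.00076, limma), and SD1-29, an S-domain receptor kinase, by 1.36 ± 0.26 (adjusted p = 0.00029, limma). The pattern receptor EFR, in contrast, was not called, at 0.4 ± 0.23.

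Calcium is an early signal in the same responses. Of 14 measured genes on the list of calcium sensors and channels, all named CML (calmodulin-like) or GLR (glutamate receptor-like), 6 rose and 2 fell, with a median of 0.13. In the fit of the 6 arrays alone and with group weights, 6 rose and none fell, and 1 fell without Col-0 array A. CML37 had 6.57, 6.86 and 7.35 in mkk1/mkk2, against 3.5, 3.35 and 3.97 in Col-0, a difference of 3.32 ± 0.25 (adjusted p = 4.9e-09, limma). CML41 had 6.08, 8.48 and 8.54 in mkk1/mkk2, against 4.7, 4.65 and 4.33 in Col-0, a difference of 3.14 ± 0.4 (adjusted p = 4.4e-06, limma). Both calcium sensors were higher on every mkk1/mkk2 array, although array A of CML41 reached only part of the height of B and C. CML43 rose by 2.62 ± 0.24, and the channel genes GLR1.4 and GLR2.7 by 2.14 ± 0.29 and 1.88 ± 0.34 (adjusted p = 5.8e-08, 9.4e-06 and 0.00018, limma). CML23 had a difference of -1.11 ± 0.3 (adjusted p = 0.0065, limma), not called in the fit of the 6 arrays alone (adjusted p = 0.074).

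Of 6 measured WRKY transcription factors, which bind the W-box of many defence promoters, 2 rose and none fell. WRKY6, also a regulator of leaf senescence, had 7.63, 7.51 and 7.7 in mkk1/mkk2, against 4.92, 5.46 and 6.17 in Col-0, a difference of 2.1 ± 0.27 (adjusted p = 4.3e-06, limma). WRKY47 rose by 2.47 ± 0.41 (adjusted p = 7.2e-05, limma), while WRKY53, a senescence and defence regulator, was not called at 0.5 ± 0.63.

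Ubiquitin ligases mark proteins for breakdown. Of 15 measured PUB and ATL ligases, 6 rose and 6 fell; in the fit of the 6 arrays alone 5 rose and 2 fell, and with group weights 5 rose and 3 fell. PUB24, a U-box ligase known to dampen responses to microbial patterns, had 7.02, 7.89 and 7.96 in mkk1/mkk2, against 5.1, 5.25 and 5.56 in Col-0, a difference of 2.32 ± 0.32 (adjusted p = 9.5e-06, limma). PUB25 went the other way, at 5.91, 4.43 and 4.54 in mkk1/mkk2, against 6.64, 6.56 and 7.41 in Col-0, a difference of -1.91 ± 0.31 (adjusted p = 6.9e-05, limma). RING1, a ligase at the plasma membrane linked to programmed cell death, rose by 2.43 ± 0.31 (adjusted p = 3.9e-06, limma).

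Methionine sulfoxide reductases, which repair oxidised methionine in proteins, moved in opposite directions. MSRB9 had 11.88, 10.85 and 10.99 in mkk1/mkk2, against 5.38, 5.39 and 4.77 in Col-0. It was 66.7-fold higher, a difference of 6.06 ± 0.38 (adjusted p = 3.2e-10, limma). MSRB5 had 7.56, 7.03 and 7.0 in mkk1/mkk2, against 9.38, 9.6 and 9.83 in Col-0, and was 5.3-fold lower at -2.41 ± 0.18 (adjusted p = 5.2e-09, limma). Of the 5 family members measured, 1 rose and 2 fell, and the neighbour of MSRB5 on the chromosome, MSRB6, was the other one that fell, by 0.9 ± 0.24 (adjusted p = 0.0057, limma), a call not made in the fit of the 6 arrays alone (adjusted p = 0.079) or with group weights (0.068).

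Protein folding within the endoplasmic reticulum was another raised group. Of 10 measured genes of ER folding and the unfolded protein response, 7 rose and none fell, at a median of 0.9. The mean over the group was 8.03, 8.15 and 8.09 on mkk1/mkk2 arrays A, B and C, against 6.88, 7.06 and 7.27 on the Col-0 arrays, without overlap. BZIP60, a transcription factor that the unfolded protein response activates by splicing its mRNA, had 11.07, 9.91 and 10.25 in mkk1/mkk2, against 8.81, 9.1 and 9.35 in Col-0, a difference of 1.32 ± 0.21 (adjusted p = 3.9e-05, limma). BZIP28, a membrane-bound factor of the same response, rose by 1.48 ± 0.24 (adjusted p = 5.8e-05, limma). The calreticulin CRT1b, a chaperone for glycoproteins, rose by 2.02 ± 0.42 (adjusted p = 0.00075, limma), and ENGase85A, which removes glycans from misfolded glycoproteins, had 6.03, 6.79 and 6.54 in mkk1/mkk2, against 4.33, 4.27 and 4.35 in Col-0, a difference of 2.14 ± 0.2 (adjusted p = 5.4e-08, limma). In the cytosol, the chaperone Hsp70-2 had 9.51, 9.14 and 8.91 in mkk1/mkk2, against 5.06, 5.27 and 5.31 in Col-0, a difference of 3.97 ± 0.19 (adjusted p = 7.6e-12, limma).

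Autophagy, the delivery of cytoplasm to the vacuole for breakdown, was represented mostly by ATG8 genes, whose protein product coats the growing autophagosome. Of 10 measured genes 5 rose, all of them ATG8 genes, and none fell; without mkk1/mkk2 array A the number was 8. ATG8B had 10.47, 9.08 and 9.49 in mkk1/mkk2, against 7.46, 7.31 and 6.94 in Col-0, a difference of 2.44 ± 0.26 (adjusted p = 4.5e-07, limma). ATG8E rose by 1.85 ± 0.26, APG8A by 1.64 ± 0.21 and ATG8D by 1.53 ± 0.2 (adjusted p = 1.4e-05, 4.2e-06 and 4.8e-06, limma). The vacuolar processing enzyme GAMMA-VPE, a protease that matures proteins in vacuoles of vegetative tissue and takes part in cell death, had 10.37, 11.16 and 10.81 in mkk1/mkk2, against 9.15, 9.43 and 9.6 in Col-0, a difference of 1.39 ± 0.3 (adjusted p = 0.0011, limma).

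ER bodies are compartments of Brassicaceae that store beta-glucosidases, released against attackers when a cell breaks. Of 9 measured genes of these bodies and of the lectins that join their enzymes, 5 rose and none fell, with a median of 1.78. PYK10, the main beta-glucosidase of ER bodies, had 7.76, 9.53 and 9.68 in mkk1/mkk2, against 4.23, 5.02 and 4.68 in Col-0, a difference of 4.35 ± 0.92 (adjusted p = 0.00089, limma). It was called under each alternative tried, and array A was the lowest of the mkk1/mkk2 arrays. The jacalin-related lectins JAL34 and JAL33, are direct neighbours on the chromosome. JAL34 had 8.17, 8.31 and 8.07 in mkk1/mkk2, against 4.89, 5.09 and 4.94 in Col-0, a difference of 3.21 ± 0.25, and JAL33 rose by 2.63 ± 0.28 (adjusted p = 7.6e-09 and 4.4e-07, limma). PYK10 is known as a root gene in healthy seedlings. Of the 3 measured root markers, PYK10 alone was called: the root-hair expansins EXPA18 and EXPA7 differed by 0.08 ± 0.2 and -0.01 ± 0.23. The mean over the 3 markers, which includes PYK10, was 5.87, 5.79 and 5.9 in mkk1/mkk2, against 4.15, 4.64 and 4.35 in Col-0. The part of root tissue in the PYK10 value was not tested beyond these markers.

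Of 16 measured auxin genes, 3 rose and 2 fell. These shares were not far from the 13.7% and 16.4% of all measured genes called higher and lower. All 3 that rose encode GH3 enzymes, which attach amino acids to auxin and related acids. GH3.3 had 9.62, 9.63 and 8.52 in mkk1/mkk2, against 3.36, 3.19 and 3.79 in Col-0, 56.1-fold higher at 5.81 ± 0.36 (adjusted p = 2.5e-10, limma). WES1, the enzyme GH3.5 that conjugates auxin and salicylic acid, had 9.42, 8.59 and 8.55 in mkk1/mkk2, against 5.05, 4.98 and 5.09 in Col-0, a difference of 3.81 ± 0.24 (adjusted p = 3.1e-10, limma). GH3.17 rose by 2.44 ± 0.29 (adjusted p = 1.6e-06, limma). GH3.1, of the same family, was not called at 0.23 ± 0.16, and GH3.9 fell by 0.61 ± 0.18 (adjusted p = 0.012, limma). The 2 that fell were GH3.9 and IAA29, and their count was 0 in the fit of the 6 arrays alone, with group weights and without Col-0 array C, 1 without mkk1/mkk2 array C and 4 without mkk1/mkk2 array A.

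The jasmonate branch, which acts against the salicylic acid branch in many settings, had 8 measured genes, of which 2 rose and 3 fell. The 2 that rose were JAL34 and PDF1.2, described above; PDF1.2 rested on single arrays and was not called in the fit of the 6 arrays alone (adjusted p = 0.11). JMT, which makes the volatile methyl jasmonate, had 3.63, 3.36 and 3.15 in mkk1/mkk2, against 5.89, 6.22 and 6.07 in Col-0, a difference of -2.68 ± 0.36 (adjusted p = 8.3e-06, limma). The transcription factors MYC4 and ORA47 fell by 2.39 ± 0.36 and 2.47 ± 0.36 (adjusted p = 3e-05 and 2.2e-05, limma), and MYC3 was not called at -0.5 ± 0.4.

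Families of detoxifying and sugar-transferring enzymes were divided rather than shifted. Of 47 measured UDP-glycosyltransferases, 12 rose and 13 fell, with a median of -0.03; 6 rose and 9 fell in the fit of the 6 arrays alone, and 7 rose and 7 fell with group weights. UGT76B1, given above, headed the rises, followed by UGT73D1 at 2.99 ± 0.27 and UGT87A2 at 2.96 ± 0.28 (adjusted p = 4.6e-08 and 7.9e-08, limma). UGT76E11 had the largest fall, at 4.06, 4.23 and 4.45 in mkk1/mkk2, against 6.99, 7.07 and 6.8 in Col-0, a difference of -2.71 ± 0.22 (adjusted p = 1.4e-08, limma). Among 22 measured beta-glucosidases, 5 rose and 4 fell; BGLU31, at 4.85, 7.84 and 7.99 in mkk1/mkk2, against 3.02, 2.97 and 3.12 in Col-0, rose by 3.86 ± 0.48 (adjusted p = 3.2e-06, limma), with array A only part of the way up. BGLU47 fell by 2.7 ± 0.26 and BGLU40 by 2.47 ± 0.29 (adjusted p = 1.1e-07 and 1.3e-06, limma).

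Of 23 measured cytochrome P450 genes, 4 rose and 5 fell, with a median of 0.02, and in the fit of the 6 arrays alone 3 rose and 3 fell. These shares were not far from the 13.7% and 16.4% of all measured genes. Some genes of the CYP71B subfamily gave opposite differences within 1 stretch of chromosome. Only called genes of that stretch are given here. CYP71B23 had 6.7, 9.02 and 9.09 in mkk1/mkk2, against 4.64, 4.29 and 4.17 in Col-0, a difference of 3.9 ± 0.46 (adjusted p = 1.6e-06, limma). CYP71B24, with 1 protein-coding gene between them, rose by 1.57 ± 0.32 (adjusted p = 0.0007, limma). CYP71B26, with 8 protein-coding genes between it and CYP71B23, fell by 1.57 ± 0.35 (adjusted p = 0.0012, limma), a call not made in the fit of the 6 arrays alone (adjusted p = 0.082). CYP71B34 and CYP71B35 follow it directly and fell too: CYP71B34 had 4.58, 5.22 and 5.75 in mkk1/mkk2, against 7.61, 7.45 and 7.51 in Col-0, and CYP71B35 had 4.27, 4.68 and 4.88 in mkk1/mkk2, against 7.09, 6.34 and 6.34 in Col-0. Their differences were -2.34 ± 0.21 and -1.98 ± 0.2 (adjusted p = 3.5e-08 and 2.4e-07, limma). Neighbours were read from the TAIR10.1 gene table, and signal shared between such close copies was not tested.

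Of 14 measured glutathione transferases, which attach glutathione to toxic or reactive compounds, none rose and 7 fell, at a median of -0.51. GSTU23 had 3.93, 4.19 and 4.02 in mkk1/mkk2, against 6.83, 6.39 and 6.11 in Col-0, a difference of -2.4 ± 0.23 (adjusted p = 8.7e-08, limma). GSTF4 fell by 1.82 ± 0.21, GSTU26 by 1.67 ± 0.25 and GSTU20 by 1.32 ± 0.17 (adjusted p = 1.4e-06, 2.8e-05 and 5.2e-06, limma). GSTU20 is also counted among the 6 measured genes of aliphatic glucosinolates, mustard-oil precursors made from methionine, of which 1 rose and 3 fell. The 1 that rose, the transporter gene GTR2 at 0.9 ± 0.3 (adjusted p = 0.024, limma), was not called when array B or C of either genotype was left out, nor in the fit of the 6 arrays alone (adjusted p = 0.25) or with group weights (0.054). BCAT4, the transaminase that starts the pathway, had 8.74, 8.98 and 8.57 in mkk1/mkk2, against 11.5, 11.15 and 11.26 in Col-0, a difference of -2.54 ± 0.33 (adjusted p = 5.3e-06, limma).

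**Figure D2:**
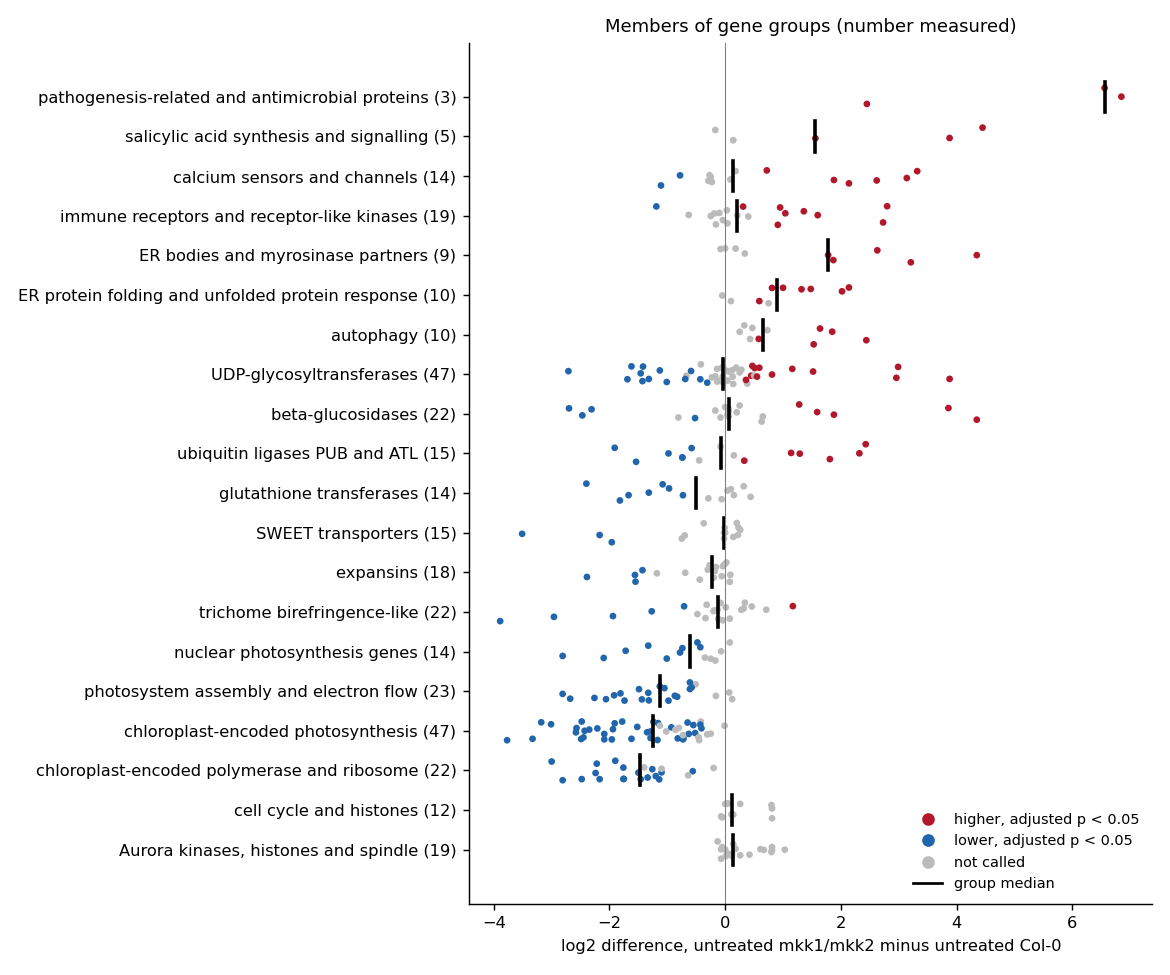
Log2 difference between untreated mkk1/mkk2 and untreated Col-0 (horizontal axis) for every measured member of 20 gene groups, 1 point a gene, with the group median as a black bar; red and blue points were called higher and lower (adjusted p under 0.05, limma) and grey points were not called. The medians of the photosynthesis groups lie to the left of 0 and those of the ER and defence groups to the right, and glycosyltransferases, beta-glucosidases and ubiquitin ligases spread to both sides.

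Photosynthesis genes were lower in mkk1/mkk2. In the group of nuclear genes for photosystem assembly and electron flow, 19 of 23 measured members fell and none rose, with a median difference of -1.13. The group mean was 8.16, 8.83 and 8.77 on mkk1/mkk2 arrays A, B and C, against 9.82, 9.79 and 9.8 on the Col-0 arrays. NdhL, a subunit of the chloroplast NDH complex that cycles electrons around photosystem I, had 7.2, 9.13 and 8.99 in mkk1/mkk2, against 11.4, 11.24 and 11.1 in Col-0, a difference of -2.81 ± 0.35, 7-fold lower (adjusted p = 3.1e-06, limma). TAPX, the ascorbate peroxidase of thylakoids that removes hydrogen peroxide, had 8.17, 7.94 and 8.1 in mkk1/mkk2, against 10.1, 10.12 and 10.16 in Col-0, a difference of -2.06 ± 0.15 (adjusted p = 2.5e-09, limma). CRR41 and CRR42, factors that assemble the NDH complex, fell by 2.68 ± 0.29 and 2.26 ± 0.18 (adjusted p = 5.6e-07 and 9.5e-09, limma). The arrays of TAPX and CRR42 were even, while NdhL and CRR41 were lowest on mkk1/mkk2 array A.

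In a second group of 14 nuclear photosynthesis genes, which shares NdhL and NdhN with the first, 9 fell and none rose, at a median of -0.61; 5 fell in the fit of the 6 arrays alone. SBPASE, an enzyme of the Calvin cycle that fixes carbon dioxide, had 9.58, 11.19 and 11.1 in mkk1/mkk2, against 12.26, 12.36 and 12.42 in Col-0, a difference of -1.72 ± 0.28 (adjusted p = 7e-05, limma). LHCB4.3, a minor antenna protein of photosystem II, had 9.32, 8.6 and 8.35 in mkk1/mkk2, against 10.87, 10.72 and 10.97 in Col-0, a difference of -2.1 ± 0.22 (adjusted p = 3.6e-07, limma). Its relatives LHCB4.1 and LHCB4.2 were not called, at 0.08 ± 0.15 and -0.35 ± 0.17, nor was the Rubisco activase RCA at -0.17 ± 0.24. Of 8 measured genes of chlorophyll and haem synthesis, 4 fell and none rose; CHLM, the methyltransferase of magnesium protoporphyrin, had 10.81, 11.35 and 11.15 in mkk1/mkk2, against 12.07, 12.11 and 12.42 in Col-0, a difference of -1.1 ± 0.13 (adjusted p = 2e-06, limma).

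Genes of the chloroplast genome were lower too, with far more spread. Of 47 measured chloroplast-encoded photosynthesis genes, 36 fell and none rose, with a median of -1.24, but 14 were called in the fit of the 6 arrays alone and 25 with group weights. The group mean was 9.11, 9.16 and 8.7 on mkk1/mkk2 arrays A, B and C, against 11.09, 10.3 and 9.92 on Col-0 arrays A, B and C, so the groups did not overlap although Col-0 array A was well above Col-0 array C. atpA, the alpha subunit of the chloroplast ATP synthase, had 7.46, 8.23 and 6.53 in mkk1/mkk2, against 11.69, 11.83 and 10.02 in Col-0. Its difference of -3.77 ± 0.92 was called (adjusted p = 0.0031, limma), though not with group weights (adjusted p = 0.066). The adjacent gene atpF had 6.48, 7.36 and 6.66 in mkk1/mkk2, against 11.01, 9.58 and 8.93 in Col-0, a difference of -3.01 ± 0.42 (adjusted p = 1.1e-05, limma).

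Of 22 measured chloroplast genes for its own RNA polymerase and ribosome, 18 fell and none rose, at a median of -1.48. The group mean was 7.01, 8.88 and 8.23 on mkk1/mkk2 arrays A, B and C, against 10.18, 9.53 and 9.19 on the Col-0 arrays. Here mkk1/mkk2 array A and Col-0 array A carried much of the difference: 11 fell without either of them, and 3 in the fit of the 6 arrays alone. rpl16, a ribosomal protein gene, had 6.89, 9.85 and 8.25 in mkk1/mkk2, against 12.43, 11.04 and 9.94 in Col-0. The highest mkk1/mkk2 array came close to the lowest Col-0 array, and the call at -2.81 ± 0.58 (adjusted p = 0.00069, limma) was not made in the fit of the 6 arrays alone (adjusted p = 0.072).

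**Figure D3:**
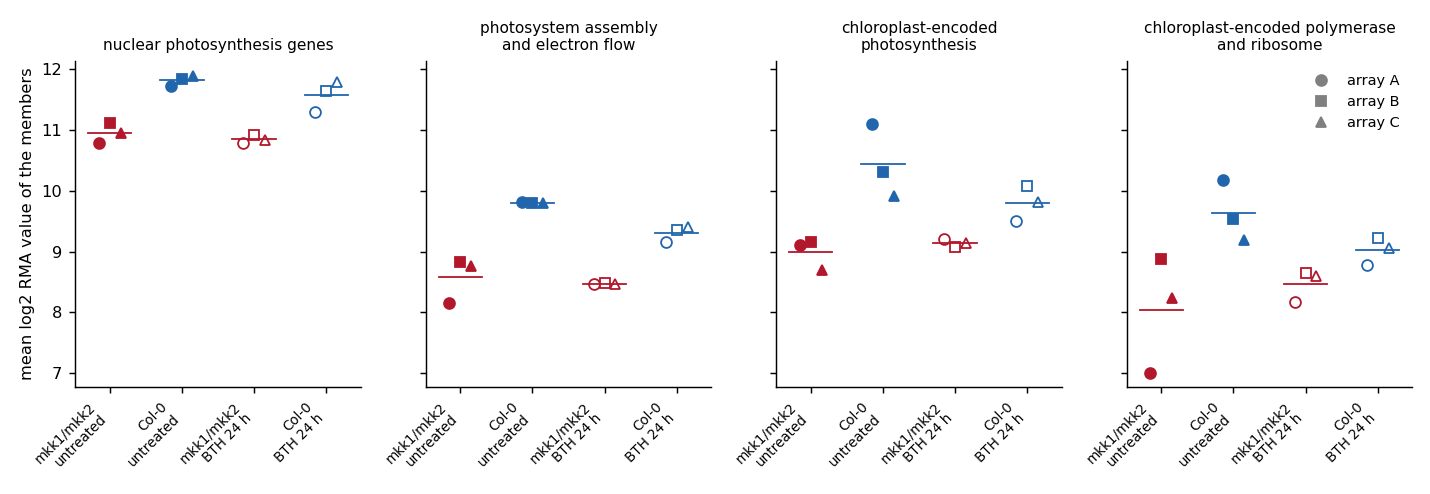
Mean log2 RMA value of the measured members (vertical axis) of 4 photosynthesis and chloroplast gene groups on each of the 12 mkk1/mkk2 and Col-0 arrays; red marks mkk1/mkk2, blue Col-0, filled symbols untreated and open symbols 24 h after BTH, with bars at the means of 3 arrays. The untreated groups are apart in each panel, and the chloroplast-encoded groups have the widest spread among arrays.

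Of 6 measured genes of abscisic acid and dehydration responses, 3 fell and none rose. COR15A, a chloroplast protein that protects membranes during freezing, had 6.31, 6.73 and 7.9 in mkk1/mkk2, against 11.39, 11.49 and 10.77 in Col-0, 18.9-fold lower at -4.24 ± 0.44 (adjusted p = 2.8e-07, limma). Its neighbour COR15B had 8.07, 8.35 and 9.59 in mkk1/mkk2, against 11.54, 11.87 and 11.21 in Col-0, a difference of -2.87 ± 0.4 (adjusted p = 1.2e-05, limma). Of 15 measured SWEET sugar transporters, 3 fell and none rose, a share near the 16.4% of all measured genes called lower. SWEET13, which exports sucrose to the phloem, had 5.28, 4.44 and 4.87 in mkk1/mkk2, against 8.75, 8.21 and 8.16 in Col-0, a difference of -3.51 ± 0.42 (adjusted p = 1.9e-06, limma). SWEET4 and SWEET17 fell by 2.17 ± 0.32 and 1.96 ± 0.24 (adjusted p = 2e-05 and 3e-06, limma), and the wall invertase-like gene cwINV6 rose by 3.5 ± 0.27 (adjusted p = 6e-09, limma).

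Growth of the cell wall was represented by several families. Of 18 measured expansins, which loosen walls, 4 fell and none rose (7 fell without mkk1/mkk2 array A and 2 with group weights), EXPB1 the most, at 6.52, 5.41 and 5.25 in mkk1/mkk2, against 8.05, 8.03 and 8.28 in Col-0, a difference of -2.39 ± 0.3 (adjusted p = 3.1e-06, limma). Of 15 measured GH9 endoglucanases, 4 fell and none rose; GH9C2 had 6.14, 6.07 and 6.15 in mkk1/mkk2, against 9.18, 9.31 and 8.78 in Col-0, a difference of -2.97 ± 0.26 (adjusted p = 3.5e-08, limma). Of 22 measured trichome birefringence-like genes, whose products acetylate wall polysaccharides, 1 rose and 5 fell, and without mkk1/mkk2 array A 3 rose. TBL26 had 6.77, 5.8 and 5.55 in mkk1/mkk2, against 10.21, 9.95 and 9.64 in Col-0, a difference of -3.89 ± 0.45 (adjusted p = 1e-06, limma), and TBL28 had 4.16, 4.18 and 4.52 in mkk1/mkk2, against 7.29, 7.14 and 7.31 in Col-0, a difference of -2.96 ± 0.16 (adjusted p = 4.3e-11, limma). XTH32, an enzyme that cuts and rejoins xyloglucan, had 7.69, 7.12 and 6.75 in mkk1/mkk2, against 11.41, 10.76 and 10.78 in Col-0, a difference of -3.8 ± 0.28 (adjusted p = 2.5e-09, limma). The median difference was -0.23 over the expansins and -0.13 over the trichome birefringence-like genes, and the shares that fell in these families were not far from the 16.4% of all measured genes.

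**Figure D4:**
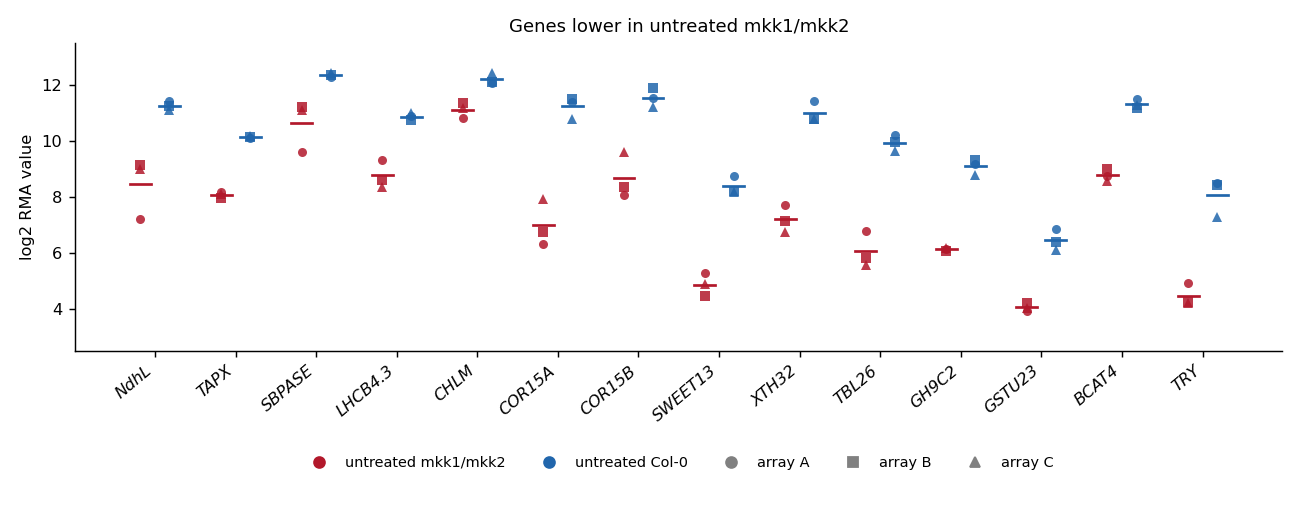
Log2 RMA value (vertical axis) of 14 genes named in the text on each untreated mkk1/mkk2 array (red) and each untreated Col-0 array (blue), with bars at the group means of 3 arrays and symbols for arrays A, B and C. For each of these genes the highest mkk1/mkk2 array lies below the lowest Col-0 array.

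Of 6 measured response regulators, the nuclear proteins of cytokinin signalling, 2 fell and none rose: ARR15 had 6.01, 5.34 and 5.48 in mkk1/mkk2, against 8.43, 7.96 and 7.17 in Col-0, a difference of -2.24 ± 0.42, and RR16 fell by 1.65 ± 0.32 (adjusted p = 0.00025 and 0.00043, limma). Some leaf cell type markers were lower as well. Of 5 measured guard cell and epidermis markers, 2 fell and none rose, and 1 of them, TRY, fell at least 2-fold. The median difference of the 5 was -0.58. Their mean, which includes TRY, was 5.58, 5.53 and 5.46 in mkk1/mkk2, against 6.5, 6.64 and 6.32 in Col-0. TRY, which keeps cells next to a trichome from becoming trichomes, had 4.92, 4.24 and 4.2 in mkk1/mkk2, against 8.47, 8.4 and 7.28 in Col-0, a difference of -3.6 ± 0.34 (adjusted p = 8e-08, limma). FMA (FAMA, which ends divisions of the guard cell lineage) fell by 0.58 ± 0.18 (adjusted p = 0.017, limma); it was not called without Col-0 array C (adjusted p = 0.075) or mkk1/mkk2 array A (0.081), nor in the fit of the 6 arrays alone (0.082) or with group weights (0.14). The stomatal genes SPCH and MUTE were not called, at 0.11 ± 0.22 and 0.09 ± 0.14. Of 5 leaf mesophyll markers, 3 fell and none rose (1 fell in the fit of the 6 arrays alone), and their mean was 11, 11.36 and 11.09 in mkk1/mkk2, against 11.55, 11.81 and 12.01 in Col-0. The part of a different mix of leaf cells in the lowered genes was not tested.

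Genes of dividing cells did not pass the test. None of 12 measured cell cycle and histone genes was called by limma, 1 of them had an unadjusted p under 0.05, and 3 were called higher in the fit of the 6 arrays alone; the median was 0.12 and the range -0.07 to 0.81. None of 19 Aurora kinase, histone and spindle genes was called, with 2 at an unadjusted p under 0.05, 3 higher in the fit of the 6 arrays alone and 2 higher without mkk1/mkk2 array A.

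Many of the largest changes were at genes that the annotation names by locus only, so no role is given. AT3G18250 had 12.67, 11.67 and 11.91 in mkk1/mkk2, against 6.08, 5.84 and 5.24 in Col-0, 82.3-fold higher at 6.36 ± 0.35 (adjusted p = 4.3e-11, limma). AT5G39520 had 10.23, 10.91 and 10.92 in mkk1/mkk2, against 5.06, 5.13 and 4.84 in Col-0, a difference of 5.68 ± 0.29 (adjusted p = 2.3e-11, limma). The others among the 15 largest rises were AT4G22490, AT3G13950, AT2G37750, AT5G52760, AT1G72060, AT5G55450 and AT2G44240, with differences between 5.16 ± 0.29 and 5.89 ± 1.3. CCOAMT, annotated as a methyltransferase of caffeoyl-CoA, the lignin precursor, also belonged to them, with 9.46, 10.18 and 10.38 in mkk1/mkk2, against 4.66, 4.27 and 4.24 in Col-0, a difference of 5.62 ± 0.21 (adjusted p = 4.2e-13, limma). On the lower side, AT2G27420 had 3.42, 3.44 and 3.17 in mkk1/mkk2, against 9.89, 8.54 and 7.78 in Col-0, 42-fold lower at -5.39 ± 0.45 (adjusted p = 1.4e-08, limma). AT1G73600 had 5.66, 6.9 and 7.17 in mkk1/mkk2, against 11.64, 11.66 and 11.53 in Col-0, a difference of -5.03 ± 0.31 (adjusted p = 2.5e-10, limma), and AT1G13650 fell by 4.94 ± 0.34. AT1G07440, AT2G40435, AT1G69523, AT1G51090, AT2G15020, AT4G13800, AT3G26960 and AT5G59130 fell by between 3.79 ± 0.27 and 4.13 ± 0.23. The mkk1/mkk2 and Col-0 arrays of each of these genes did not overlap, which the rule that chose them required.

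The 2 genotypes were also sampled 24 h after BTH on 6 other arrays, which share no array with the untreated comparison. On those, 4918 probe sets were called (21.6%), 2591 higher in mkk1/mkk2 (11.4%) and 2327 lower (10.2%). Both comparisons come from the same fit of 24 arrays and share its estimate of spread, so their calls are not independent. Without untreated mkk1/mkk2 array A, the count after BTH was 6351. Of the probe sets called higher after BTH, 2052 were also higher untreated, 79.2% of the BTH calls and 56.2% of the untreated ones; of those called lower, 1960 were shared, 84.2% and 50.0%. Opposite calls were made at 23 probe sets. Across the probe sets, the differences of the 2 comparisons correlated at 0.832, which is a description across genes. At the 1321 probe sets at least 2-fold higher after BTH, untreated mkk1/mkk2 arrays A, B and C each lay above the untreated Col-0 mean, by medians of 1.54, 1.7 and 1.75. At the 927 at least 2-fold lower they lay below it, with medians of -2.03, -1.73 and -1.65. By these medians, array A lay on the same side as B and C at the probe sets called after BTH.

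The difference between the genotypes changed with BTH at 531 probe sets (interaction term, 2.33% of those tested), upward at 213 (0.936%) and downward at 318 (1.4%). At 441 of the 531 the difference was smaller in size after BTH and at 90 larger. That count rested on single arrays: it was 889 without untreated mkk1/mkk2 array A, 345 without Col-0 BTH array B and 348 without mkk1/mkk2 BTH array A. GRX480 read 9.83, 9.97 and 9.64 in mkk1/mkk2 after BTH, against 9.6, 9.65 and 8.92 in Col-0 after BTH, so the genotypes lay within 0.42 ± 0.23 of each other (adjusted p = 0.23, limma) at the height that untreated mkk1/mkk2 already had. The interaction was -4.03 ± 0.33 (adjusted p = 4.5e-07, limma). AT5G55450 had 12.26, 12.5 and 12.27 in mkk1/mkk2 after BTH, against 12.56, 12.21 and 12.27 in Col-0 after BTH, while the untreated values were 12.14, 12.28 and 12.45 in mkk1/mkk2, against 6.05, 7.21 and 8.08 in Col-0. Its interaction was -5.18 ± 0.57 (adjusted p = 2e-05, limma). AT5G52760 and CYP71B23 showed the same layout, with interactions of -4.57 ± 0.68 and -3.08 ± 0.66 (adjusted p = 0.00051 and 0.013, limma).

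CHI lay in between. It had 12.52, 12.17 and 12.11 in mkk1/mkk2 after BTH, against 8.84, 8.77 and 9.5 in Col-0 after BTH, a difference of 3.23 ± 0.28 (adjusted p = 5.4e-08, limma), with an interaction of -3.62 ± 0.4 (adjusted p = 1.9e-05, limma). OSM34 had 11.65, 11.27 and 10.87 in mkk1/mkk2 after BTH, against 4.23, 4.06 and 3.89 in Col-0 after BTH, values close to the untreated ones of each genotype. Its interaction of 0.64 ± 0.31 was not called (adjusted p = 0.41, limma). CCOAMT, GH3.3, WES1, PDF1.4 and AT5G39520 likewise had interactions that were not called, between -0.54 ± 0.41 and 0.36 ± 0.42. CCOAMT, for example, had 10.74, 10.67 and 10.59 in mkk1/mkk2 after BTH, against 4.8, 4.96 and 4.45 in Col-0 after BTH.

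Among the lowered genes, AT2G27420 had 3.3, 3.44 and 3.44 in mkk1/mkk2 after BTH, against 4.14, 4.42 and 4.56 in Col-0 after BTH, an interaction of 4.41 ± 0.63 (adjusted p = 0.00035, limma). UGT76E11 had 5.78, 5.23 and 5.05 in mkk1/mkk2 after BTH, against 5.49, 5.66 and 5.53 in Col-0 after BTH, an interaction of 2.5 ± 0.32 (adjusted p = 9.6e-05, limma). In both, the Col-0 values after BTH were far below the untreated Col-0 values. PUB25 had an interaction of 1.83 ± 0.44 (adjusted p = 0.031, limma). MSRB9, which was higher in untreated mkk1/mkk2, had an interaction of -2.75 ± 0.54 (adjusted p = 0.0068, limma). Unlike AT2G27420, UGT76E11 and PUB25, the lowered gene MSRB5 differed by more after BTH. It had 6.38, 6.53 and 6.24 in mkk1/mkk2, against 9.57, 9.99 and 9.93 in Col-0, an interaction of -1.04 ± 0.26 (adjusted p = 0.039, limma). The photosynthesis genes NdhL, TAPX and SBPASE had interactions that were not called, at 0.73 ± 0.5, 0.59 ± 0.21 and 0.58 ± 0.4, and in the group of photosystem assembly genes 16 of 23 were called lower after BTH and none had an interaction called. The chloroplast-encoded groups had fewer calls after BTH. Of 47 photosynthesis genes 8 were called lower, at a median of -0.53, and of 22 polymerase and ribosome genes none, at a median of -0.56. No interaction was called in these groups either.

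**Figure D5:**
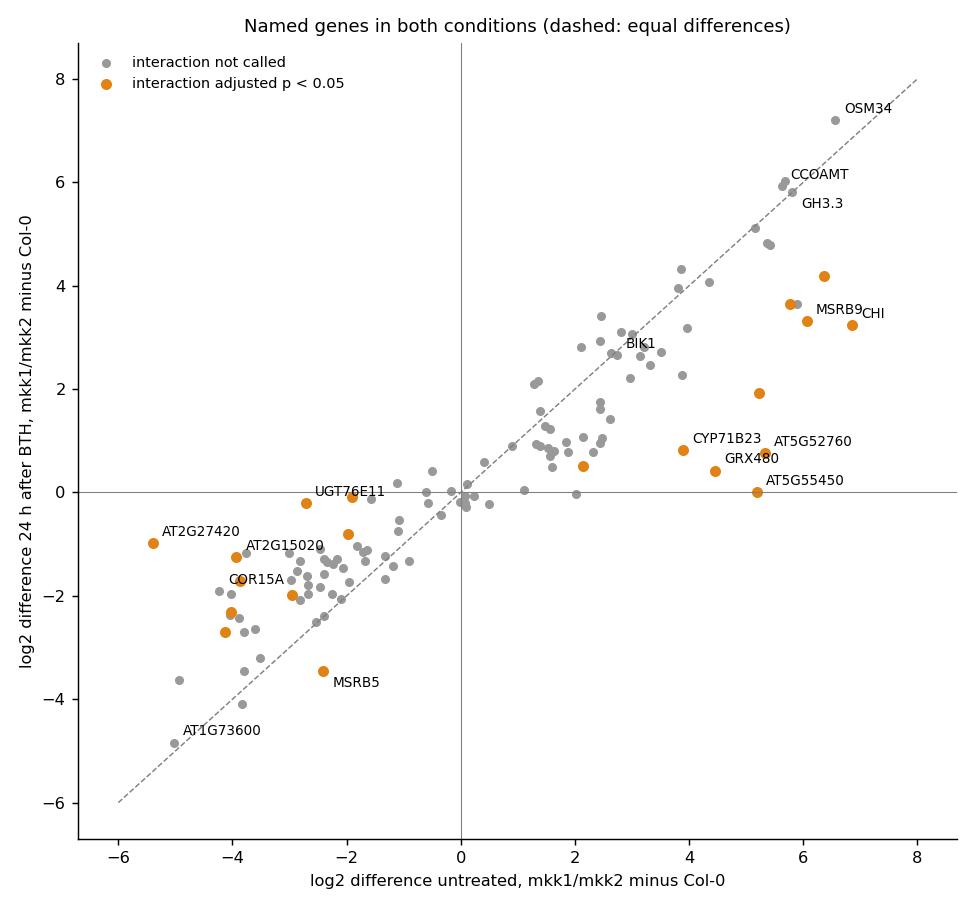
Log2 difference between mkk1/mkk2 and Col-0 untreated (horizontal axis) and 24 h after BTH (vertical axis) for the genes named in the text, with orange points where the interaction was called (adjusted p under 0.05, limma) and a dashed line where both differences are equal. OSM34, CCOAMT and GH3.3 lie close to the line, whereas GRX480 and AT5G55450 lie near 0 on the vertical axis.

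The single mutants can be set beside the double mutant by value. The same untreated Col-0 arrays serve all 3 genotypes, and the single-mutant arrays differ from the others in a control: the bioC minus bioD spike signal was -3.61 to -3.32 on the 12 mkk1 and mkk2 arrays, against -2.23 to -1.77 on the 12 arrays of mkk1/mkk2 and Col-0, so set of arrays and genotype cannot be told apart. With that limit, 7853 probe sets (34.5%) were called between untreated mkk1/mkk2 and the mean of the untreated single mutants. CHI averaged 11.6 ± 0.43 in mkk1/mkk2, 5.81 ± 0.52 in mkk1, 4.58 ± 0.25 in mkk2 and 4.75 ± 0.43 in Col-0 (SD, n = 3 each). OSM34 averaged 10.44 ± 0.16 in mkk1/mkk2, 5.17 ± 0.17 in mkk1, 4.25 ± 0.14 in mkk2 and 3.88 ± 0.35 in Col-0 (SD, n = 3 each). GRX480 averaged 10.21 ± 0.19 in mkk1/mkk2, 5.74 ± 0.36 in mkk1, 5.98 ± 0.19 in mkk2 and 5.76 ± 0.08 in Col-0 (SD, n = 3 each). For these defence genes both single mutants read much nearer to Col-0 than to the double mutant. PYK10 was a different case, averaging 8.99 ± 1.07 in mkk1/mkk2, 7.94 ± 0.57 in mkk1, 5.93 ± 2.25 in mkk2 and 4.64 ± 0.4 in Col-0 (SD, n = 3 each), and mkk1/mkk2 was not called against the single mutants (difference 2.06 ± 0.79, adjusted p = 0.051, limma). AT2G27420 averaged 3.34 ± 0.15 in mkk1/mkk2, 5.15 ± 0.86 in mkk1, 5.0 ± 0.84 in mkk2 and 8.74 ± 1.07 in Col-0 (SD, n = 3 each), so here the single mutants read nearer to the double mutant than to Col-0.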

How the data were processed

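The deposited series table holds log2 values for each ATH1 probe set on 24 arrays, made by the authors with RMA per the submitters' processing notes, and the software version is not given in the sources used here. Columns were matched to samples by their labels. After removal of 64 AFFX control probe sets, 22746 were tested with limma 3.58.1 in R 4.3.3 (lmFit and eBayes on 8 group means, 24 arrays), with Benjamini-Hochberg adjustment over all probe sets. The untreated contrast, the contrast after BTH, their difference and the contrast with the single mutants were fitted. The script was tested on simulated data.

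GEO's platform annotation gave 13513 probe sets 1 gene, 503 several and 8730 none; symbols were updated through RefSeq (TAIR10.1). Genes were named by rule: 18 fixed genes, of which 6 were found by name, the 15 largest rises and falls among called genes whose groups do not overlap, and up to 4 genes a list. The 13 named genes outside the rule (CYP71B24, EFR, EXPA18, EXPA7, GH3.1, GH3.9, LHCB4.1, LHCB4.2, MUTE, MYC3, RCA, SPCH and WRKY53) were chosen after their values were seen. Members and lists were chosen with earlier results of these data known, and they give no independent support. Alternatives were other arrays in the fit, weights, a replicate block, a level filter, other scaling and each array left out. No sequences were used. The number of arrays limits the precision.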

Additional observations from a re-analysis of the deposited data

Results flagged for a closer look

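For 20 genes named in the text, the difference between mkk1/mkk2 and Col-0 was itself different 24 h after BTH from what it was in untreated plants, by the interaction term of the limma fit at an adjusted p under 0.05. Each value below is the log2 difference after BTH minus the untreated one, so a negative value means a lower difference after BTH.

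Of the genes higher in untreated mkk1/mkk2, AT5G55450 had an interaction of -5.18, AT5G52760 of -4.57 and GRX480 of -4.03. CHI had -3.62, AT1G72060 had -3.31 and CYP71B23 had -3.08. The interaction was -2.75 for MSRB9, -2.18 for AT3G18250, -2.12 for AT3G13950 and -1.63 for ENGase85A. All 10 of these differences were smaller after BTH.

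Of the genes lower in untreated mkk1/mkk2, AT2G27420 had an interaction of 4.41, AT2G15020 of 2.68 and UGT76E11 of 2.5. AT4G13800 had 2.15, PUB25 had 1.83 and AT1G69523 had 1.72. The interaction was 1.42 for AT1G07440, 1.17 for CYP71B35 and 0.97 for TBL28, so these differences also moved towards 0. MSRB5, at -1.04, was the exception: it was lower in mkk1/mkk2 by more after BTH than untreated. Most of these genes were named for their large untreated differences, and the interaction subtracts those same values. That choice favours movement towards 0, so the shared direction is a description of the named genes alone.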

How the results depend on the processing

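The count of 7573 probe sets in the untreated comparison was 4183 in the fit of the 6 arrays alone, 3192 in that fit with a replicate block, and 4862 with weights by group; leaving out each array in turn gave 6351 to 8208. With array weights it was 11286. That fit gave untreated Col-0 arrays A, B and C weights of 1.4, 25.9 and 1.68, and Col-0 BTH array B a weight of 9.25e-10. Its untreated Col-0 values thus come mostly from array B. Of the 3884 probe sets called with at least a 2-fold change, 1363 passed a test against a 2-fold change (limma treat), and the range was 3614 to 4274 with each array left out. The interaction count of 531 was 258 in the fit of the 12 Col-0 and mkk1/mkk2 arrays, 1142 with array weights, 226 with weights by group and 1083 without 3 arrays that stood apart, with a range of 345 to 889 with each array left out. The contrast with the single mutants, 7853, was 4179 with weights by group and 6980 to 9075 with each array left out; the contrast after BTH, 4918, was 3770 to 6351. The fits of 6 and 12 arrays have fewer degrees of freedom. However, a fit of 5 arrays of the 2 groups, without mkk1/mkk2 array A, called 7164 in the untreated comparison. That fit was added after the data were seen. The cause of these changes was not tested.

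The letters A to C did not pair the arrays: deviations of same-letter arrays correlated at -0.001, 0.06 and -0.192, and with the letter as a replicate block over 24 arrays 7635 probe sets were called. Of the 115 named genes called in the untreated comparison, 99 were called under every alternative and 16 lost the call under at least 1, most often PDF1.2 (11 of 37 alternatives); 10 lost it in the fit of the 6 arrays alone and 9 with weights by group. EXPA18, not called at 0.08, was called at -0.33 with array weights, the fit in which untreated Col-0 array B had most of the weight of its group.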

Other observations

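In the breakdown of leucine, isoleucine and valine in mitochondria, 4 of 9 measured genes rose and 2 fell in untreated mkk1/mkk2 against untreated Col-0. The rises were 1 in the fit of the 6 arrays alone, 2 with group weights and 2 without Col-0 array B, while the falls stayed at 2 in the fit of the 6 arrays alone and with group weights. MCCA, a subunit of methylcrotonyl-CoA carboxylase in leucine breakdown, had 6.44, 7.08 and 6.79 in mkk1/mkk2, against 5.28, 5.40 and 5.79 in Col-0, a difference of 1.28 ± 0.21 (adjusted p = 7.6e-05, limma), and was called under each alternative tried. Among 3 reference genes, TUB6, a beta-tubulin, fell by 1.08 ± 0.24 (adjusted p = 0.0012, limma).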
